A study of Mus musculus with 6 samples.

Results

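This is a comparison of 2 neighbouring groups of cells along the trunk of mouse stembryos at 120 h: the cells that the study's annotation named Somite A and those that it named Determination front. Both were taken from the same 3 libraries and set against each other within each library. They made up 4788 of the 11494 cells of these libraries and of the 26968 cells of the whole series, with 3698 Somite A cells and 1090 determination front cells. Stembryos, also called gastruloids, are aggregates of mouse embryonic stem (mES) cells that elongate after a pulse of the Wnt agonist Chiron and form tissues of the trunk without an embryo around them. All cells were wild type (genotype wt), grown from mES cells, collected 120 h after aggregation, and every culture had received the same agonist pulse. Each library was a pool of 48 to 96 stembryos, and stembryos that had not elongated by 120 h had been discarded by the authors. Whole stembryos gave 2 libraries (whole replicate 1 and whole replicate 2), and a further pool was cut into an anterior and a posterior part, of which the anterior part is the third library here. The labels do not say whether these were separate cultures, so p-values measure the spread between these libraries, which may be technical.

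In the vertebrate trunk, somites bud one after another from the anterior end of the presomitic mesoderm (PSM). Cells of the posterior PSM are kept immature by FGF and Wnt signals, and a segmentation clock of oscillating Notch target genes runs through them. At the determination front these signals fall below a threshold and the clock slows. Mesp2 is then switched on under Notch and Tbx6, Ripply proteins shut Tbx6 down, and a segment boundary is laid. The cells next become an epithelial somite with a rostral and a caudal compartment, which later gives rise to the sclerotome (vertebrae and ribs) and the dermomyotome (muscle and dermis).

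The values are counts of unique transcript molecules (UMIs). They were summed over the cells of one name in one library, which gave 6 sums, and levels are given in CPM, the counts scaled to a common library size after TMM correction. Values of 3 libraries always stand in the order whole replicate 1, whole replicate 2, anterior part. A log2 change is Somite A over determination front, with its standard error, from the quasi-likelihood test of edgeR with the library as a block, and a gene was called at a Benjamini-Hochberg adjusted p under 0.05 over all 12522 genes tested. A sum cannot tell fewer expressing cells from less RNA per cell. The names had been given to clusters that were drawn on the expression of these same cells. An adjusted p is therefore no independent evidence that the clusters differ. It weighs a difference against a spread between libraries that is largely shared between genes. A small adjusted p need not mean an even difference: of the 3591 called genes, 149 had another direction in 1 library.

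The determination front held 615, 207 and 268 cells in the 3 libraries, and Somite A held 1174, 643 and 1881 cells. As a share of all cells of the library, the front made up 12.6% (95% exact binomial interval 11.7 to 13.6), 7.72% (6.73 to 8.79) and 6.795% (6.03 to 7.63). Somite A made up 24.1% (22.9 to 25.3), 23.97% (22.4 to 25.6) and 47.7% (46.1 to 49.3). The intervals cover counting error only. The sums of the front held 10557165, 2122636 and 4508420 UMIs, and those of Somite A 18875431, 5787349 and 26068837 UMIs, so whole replicate 2 had the fewest counts behind its values. Median UMIs per cell were 16471, 9787 and 16237 in the front and 15498, 8601 and 13210 in Somite A. The share of cells called G1 was 27.97%, 21.7% and 40.7% in the front and 26.4%, 18.8% and 26.6% in Somite A, so that the anterior part had more front cells in G1 than the other sums. Each library was also its own batch, with V3 chemistry in whole replicate 1 and the anterior part and V3.1 in whole replicate 2. Both sides shared that batch, so an effect of batch common to both sides drops out of the comparison. No cell barcode was shared between the libraries.

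The names were checked against marker genes. Mesp1, Mesp2 and Ripply2, taken here as markers of the front, were present in the front cells of both whole libraries and nearly absent from those of the anterior part. Mesp1 and Mesp2 were not particular to the front, as their levels in late PSM given below show. Ripply2 was at 94.1, 76.6 and 2.57 CPM in the 3 fronts, Mesp1 at 19.3, 32.6 and 1.4 CPM and Mesp2 at 18.8, 22.9 and 0.933 CPM. The front cells of the posterior part, which is not among the 3 libraries, had 103 CPM of Ripply2, 60.9 CPM of Mesp1 and 75.2 CPM of Mesp2. The anterior front still had Cer1 at 34.3 CPM, Lfng at 22.4 CPM and Pcdh8 at 22.6 CPM, against at most 2.27, 1.13 and 0.648 CPM in any Somite A sum. The summed level of the 9 front markers was 376, 328 and 114 CPM in the front and 80.01, 72.9 and 48.1 CPM in Somite A. In contrast, the summed level of the 8 somite markers did not separate the sides, with 1869 to 2127 CPM in the front and 1780 to 2028 CPM in Somite A. Tcf15 and Meox1 made up most of that sum. Other members moved both ways. Meox2 (log2 change 1.74), Uncx and Pax3 were called higher in Somite A, and Aldh1a2 (-1.78) and Foxc2 (-0.54) lower. Tcf15, a bHLH factor needed for somite epithelium, was at 1049, 848 and 836 CPM in the front and 877, 762 and 795 CPM in Somite A. It was therefore already high in the front and slightly lower in Somite A (log2 change -0.16 ± 0.04, adjusted p = 0.00481, and not called without whole replicate 1, at -0.11). Meox1, another early somite factor, was at 506, 467 and 721 CPM in the front and 529, 475 and 714 CPM in Somite A and was not called (0.03 ± 0.04, adjusted p = 0.70). By these markers the front cells of these libraries already carried somite genes, and those of the anterior part held little Mesp1, Mesp2 and Ripply2. Results are therefore given with and without the anterior part for most gene lists and for some of the genes that it changes.

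Promoter sequences are shown for 4 genes that were among the most lowered in Somite A or belong to the clock and that hold a match to 1 of 2 short motifs. They are the 250 bases before the gene's start from RefSeq (GRCm38.p6, the plus strand for all 4), 5′ to 3′, with motif matches in capitals. For Lfng, Hes5 and Hes7 the capitals mark GTGGGAA, or on the opposite strand TTCCCAC, the letters of a site for RBPJ, the DNA-binding partner of Notch. For Ripply2 they mark GGTGTGA, or on the opposite strand TCACACC, the core letters of a site for T-box factors.
Lfng, chr5:140607091-140607340: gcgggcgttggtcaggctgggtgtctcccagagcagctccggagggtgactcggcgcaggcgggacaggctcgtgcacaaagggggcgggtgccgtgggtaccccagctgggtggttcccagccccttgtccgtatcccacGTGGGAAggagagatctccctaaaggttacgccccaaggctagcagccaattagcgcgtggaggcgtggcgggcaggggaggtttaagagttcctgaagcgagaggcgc
Hes5, chr4:154960673-154960922: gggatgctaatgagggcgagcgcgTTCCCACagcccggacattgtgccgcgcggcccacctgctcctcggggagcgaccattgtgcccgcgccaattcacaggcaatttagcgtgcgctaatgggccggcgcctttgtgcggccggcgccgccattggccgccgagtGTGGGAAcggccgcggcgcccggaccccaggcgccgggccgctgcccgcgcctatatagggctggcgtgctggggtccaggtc
Hes7, chr11:69120203-69120452: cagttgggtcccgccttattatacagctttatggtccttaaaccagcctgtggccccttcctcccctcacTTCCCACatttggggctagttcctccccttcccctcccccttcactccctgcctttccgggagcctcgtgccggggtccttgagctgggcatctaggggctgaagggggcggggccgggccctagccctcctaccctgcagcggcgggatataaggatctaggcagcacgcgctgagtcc
Ripply2, chr9:87015287-87015536: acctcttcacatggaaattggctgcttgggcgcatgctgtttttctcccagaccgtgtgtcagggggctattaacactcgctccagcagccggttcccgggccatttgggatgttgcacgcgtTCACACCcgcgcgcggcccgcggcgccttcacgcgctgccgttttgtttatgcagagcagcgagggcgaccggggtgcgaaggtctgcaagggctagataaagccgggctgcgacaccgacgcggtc
The matches begin 109 bases before the start of Lfng, 83 and 226 bases before that of Hes5, 180 bases before that of Hes7 and 127 bases before that of Ripply2. Of the 14 tested genes of the Notch list given below, 11 had a promoter in the table, and 4 of them (Lfng, Hes5, Hes7 and Hey2) held GTGGGAA on either strand within 250 bases before to 50 after the start, which 6.38% of all 32851 promoters do. Of the 13 tested genes of the boundary list, 3 (Ripply1, Ripply2 and Mesp1) held GGTGTGA, which 3.98% of all promoters do. Altogether 6 motifs were searched on both strands: the other 4 were a shorter RBPJ core, TGGGAA, which lies inside the longer motif, an E-box with the letters CAAATG, a second E-box spelled CACGTG and a further E-box spelled CATATG. In the boundary list GTGGGAA was in 0 of 13 promoters, and in the Notch list GGTGTGA was in 0 of 11. The shorter RBPJ core was in 5 promoters of the Notch list and 1 of the boundary list (25.6% of all promoters), the first E-box in 2 and 3 (13.7%), the second in 2 and 0 (7.15%) and the further E-box in 0 of both (3.915%). In the list of somite identity factors 13 genes had a promoter, of which 2 held GTGGGAA and 1 held GGTGTGA. A match is a description of letters and no evidence of binding.

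Of the 12522 genes tested, 3591 were called (28.7%), 1671 of them higher in Somite A (13.3%) and 1920 lower (15.3%). The counts in the gene lists below stand against these shares of all genes. Most differences were small. A log2 change of at least 1 was reached by 287 genes higher in Somite A (2.29%) and by 293 genes lower in it (2.34%), and the median over all genes was 0.01. Without the anterior part 3281 genes were called, 1514 of them higher and 1767 lower, and without whole replicate 1, the deepest front, 2168 were called. Among genes with at least 50 CPM on the higher side that moved the same way in all 3 libraries, the 12 most lowered held genes of the segment boundary (Ripply2, Pcdh8 and Cer1), of Notch signalling (Nrarp and Dll3) and of Wnt signalling (Dact1). The rest of the 12 were Gadd45g (a growth arrest and stress gene), Pcdh19 (a protocadherin), Ptprz1 (a receptor tyrosine phosphatase), Mthfd2 (a mitochondrial folate enzyme), Hoxb1 and Slc45a4 (a transporter), with log2 changes down to -6.86 and up to -1.78. The 12 most raised genes included Igfbp5 (an IGF binding protein), Itga6 (an integrin chain of laminin receptors), Nrtn (a ligand of the GDNF family) and Cxcl12 (a chemokine). Rgmb (a BMP co-receptor), Tgfb2 (a TGF-beta ligand) and Fxyd6 (a regulator of the sodium pump) were also among them. The others were Nr2f1 (a nuclear receptor), Zfp703 (a zinc finger factor), Gchfr (a regulator of GTP cyclohydrolase), Mest (a paternally expressed imprinted gene) and the non-coding RNA Foxd2os. Their log2 changes ran from 1.54 to 2.70, and that of Rgmb was 1.03 without whole replicate 1. The next genes outside these lists were Phlda1 at 1.41 and Aldh1a2 at -1.78.

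**Figure D1:**
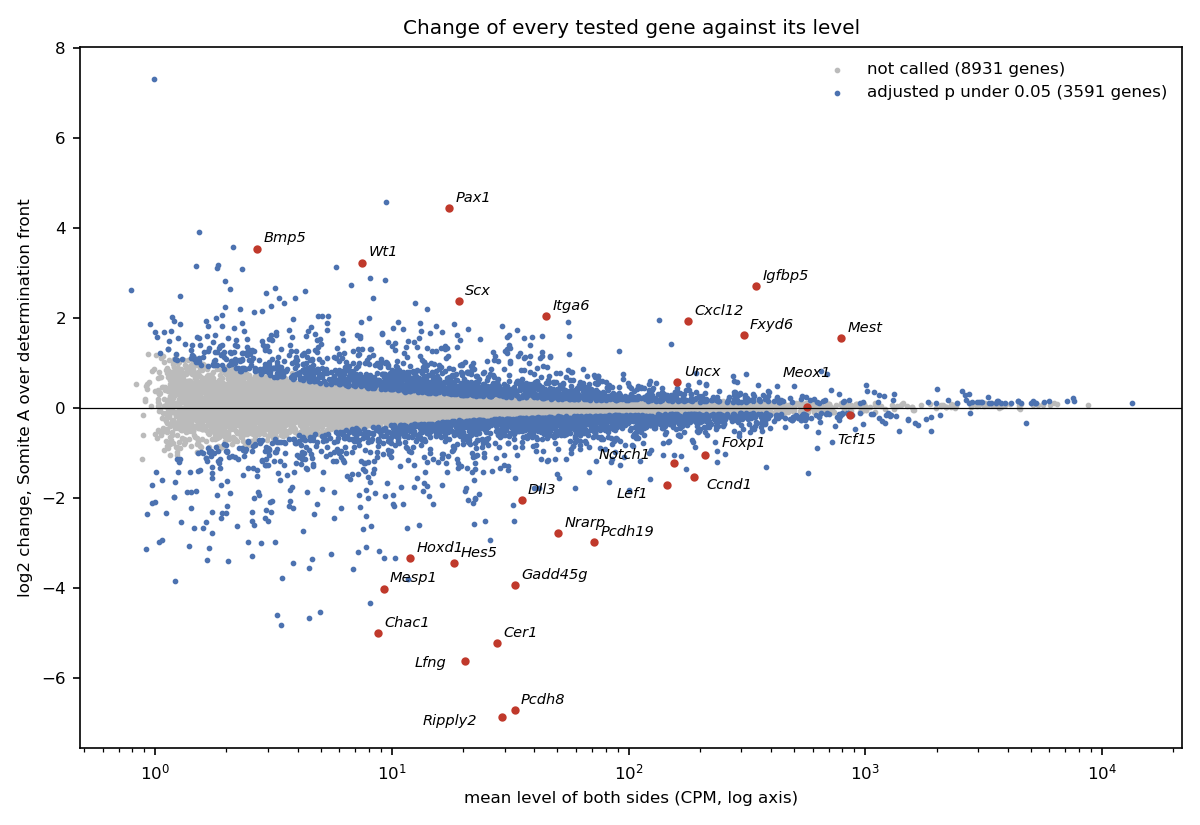
Each point is one of the 12522 tested genes, with its mean CPM over both sides on a log x axis and its log2 change, Somite A over determination front, on the y axis. Blue points are the 3591 genes called at an adjusted p under 0.05, grey points the others, and red points are named genes, with Ripply2 and Pcdh8 lowest and Pax1 the highest of those named.

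Igfbp5 was at 56.2, 101 and 127 CPM in the front and 467, 739 and 592 CPM in Somite A, a log2 change of 2.70 ± 0.09 (adjusted p = 2.05e-16). Every Somite A sum lay several times above every front. Mest was at 368, 301 and 548 CPM in the front and 1146, 1034 and 1339.8 CPM in Somite A (log2 change 1.55 ± 0.06). Cxcl12 was at 70.2, 57.7 and 92.6 CPM in the front and 257, 268 and 326 CPM in Somite A (1.92 ± 0.06), with no overlap between the sides. Itga6, whose protein binds laminin with a beta chain, was at 15.3, 13.6 and 23.8 CPM in the front and 67.9, 64.8 and 84.3 CPM in Somite A (2.04 ± 0.09). Nrtn was at 45.1, 32.6 and 93.8 CPM in the front and 206, 138 and 294 CPM in Somite A (1.95 ± 0.08). Its level was highest in the anterior part on both sides.

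Genes that set and mark the segment boundary had the lowest median of the gene lists. Mesp1, Mesp2, Ripply1, Ripply2 and Tbx6 of this list are also front markers by which the names were checked. The clusters were drawn on the expression of these cells, so the low median is a description and no independent result. In the list of Mesp, Ripply and boundary genes, 13 of 15 were tested, 11 were lower in Somite A, 1 was higher (Dact2, a relative of Dact1, at 1.03 ± 0.13) and 1 was not called, with a median log2 change of -2.17. The counts were the same without the anterior part (median -2.10). Ripply2, a co-repressor that ends Tbx6 activity, was at 94.1, 76.6 and 2.57 CPM in the front and 0.984, 0.162 and 0 CPM in Somite A. It was thus high in the whole fronts only, with a log2 change of -6.86 ± 0.19 (adjusted p = 7.69e-18) over all libraries and of -8.56 without whole replicate 1. The Somite A sums held 18, 1 and 0 UMIs of Ripply2, so the size of the latter value is poorly set. Mesp1, a bHLH factor of early mesoderm and the anterior PSM, was at 19.3, 32.6 and 1.4 CPM in the front and 0.929, 0.486 and 0.68 CPM in Somite A (-4.02 ± 0.34, adjusted p = 3.20e-09, and -4.77 without the anterior part). Mesp2, its neighbour and the factor that fixes the boundary, was at 18.8, 22.9 and 0.933 CPM in the front and 1.804, 1.46 and 0.76 CPM in Somite A (-3.10 ± 0.29, adjusted p = 1.35e-08). Both whole fronts were above every Somite A sum and the anterior front was as low as Somite A, so that the sides overlapped. Without the anterior part the log2 change of Mesp2 was -3.52.

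Pcdh8, a protocadherin of the rostral side of forming somites, was at 86.4, 87.6 and 22.6 CPM in the front and 0.547, 0.648 and 0.44 CPM in Somite A (-6.72 ± 0.18, adjusted p = 5.14e-18). Cer1, a secreted antagonist of BMP and Nodal, was at 53.3, 75.3 and 34.3 CPM in the front and 1.15, 2.27 and 1.04 CPM in Somite A (-5.23 ± 0.14). Unlike Ripply2, both genes were well above Somite A in the anterior front too. Tbx6, a T-box factor of the PSM, was low in every front, at 9.13, 4.401 and 7.93 CPM in the front and 1.48, 1.46 and 0.76 CPM in Somite A (-2.74 ± 0.27). Snai1, a repressor of epithelial genes, was at 17.5, 18.5 and 8.17 CPM in the front and 5.03, 4.38 and 3.68 CPM in Somite A (-1.66 ± 0.17), and Ripply1 at 5.44, 3.52 and 3.27 CPM in the front and 1.69, 1.78 and 1.92 CPM in Somite A (-1.27 ± 0.27, and not called without whole replicate 1, at -0.83). Epha4, a receptor of the rostral cells at the boundary, was at 92.1, 88.5 and 27.1 CPM in the front and 35.3, 28.7 and 22.5 CPM in Somite A (-1.15 ± 0.13), and here the low anterior front overlapped with Somite A. Without the anterior part Epha4 stood at -1.45. Fgf9 was not called (0.06 ± 0.21, adjusted p = 0.87).

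**Figure D2:**
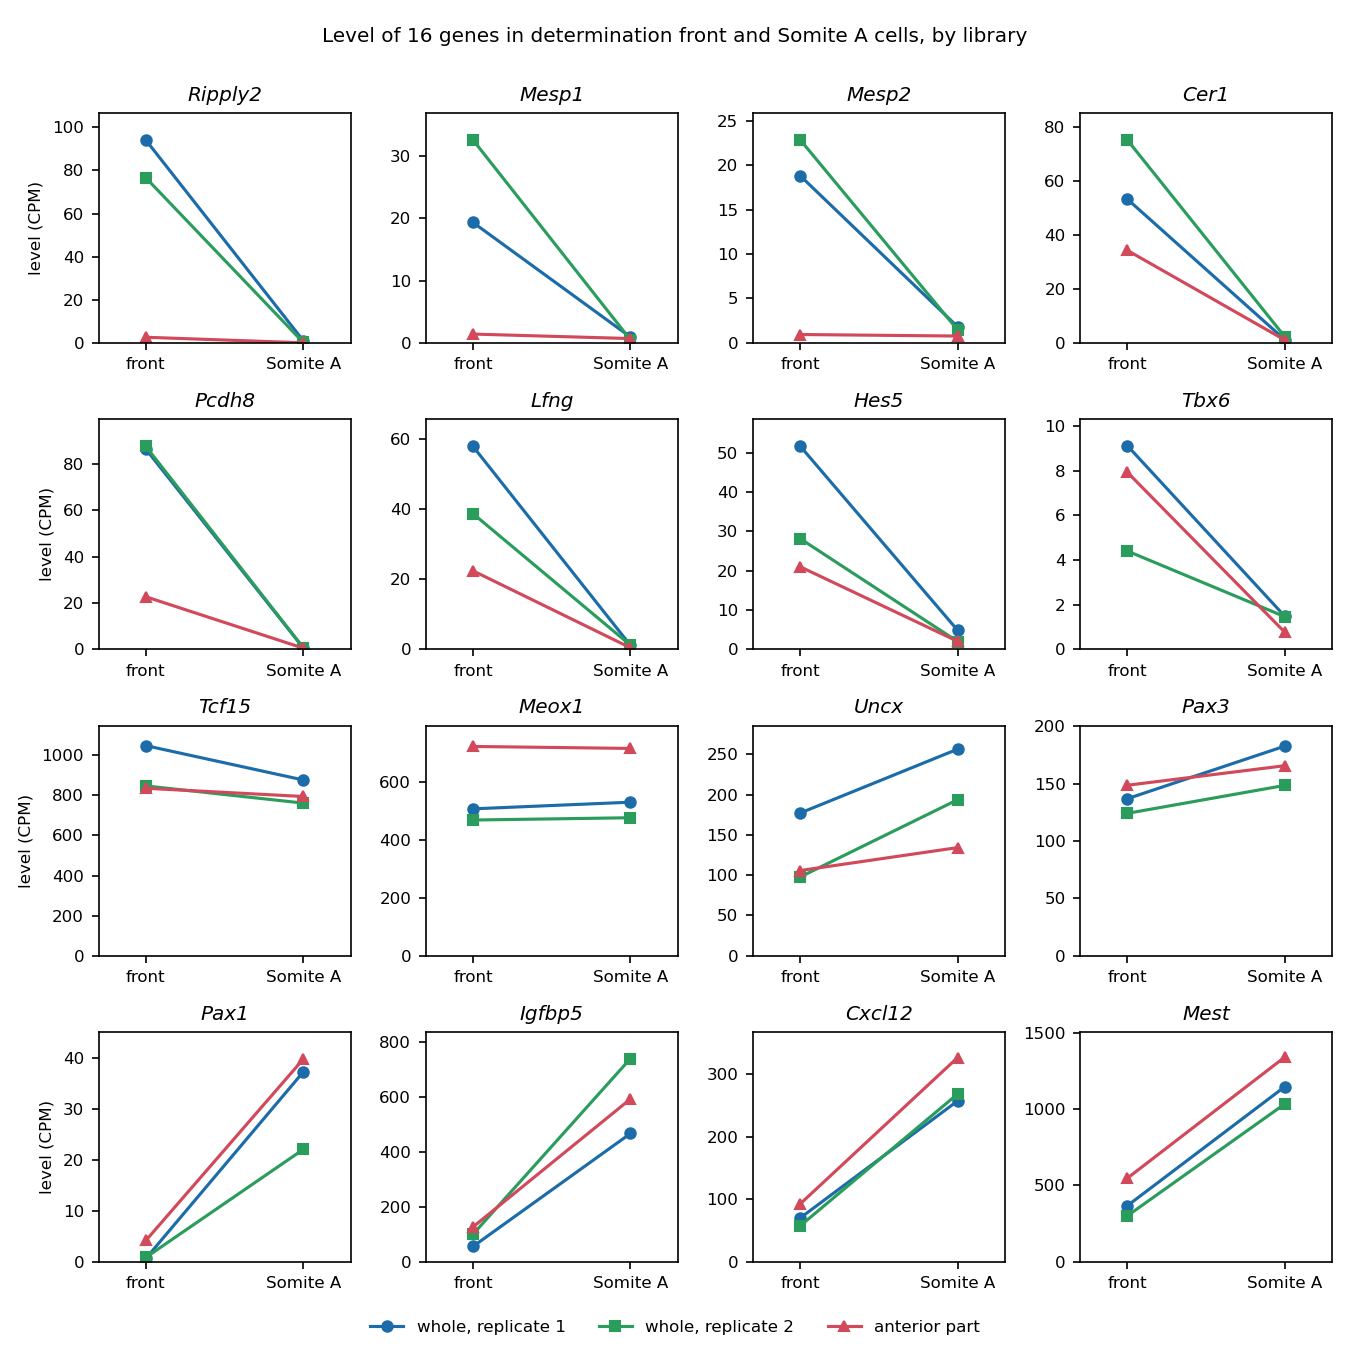
Level in CPM (y axis, from 0) of 16 genes in the determination front and in Somite A, with 1 line for each library. The boundary and Notch genes drop in the whole libraries, and Ripply2 starts at only 2.57 CPM in the anterior part, where Cer1 and Pcdh8 start higher, Tcf15 and Meox1 stay high on both sides, and Pax1, Igfbp5, Cxcl12 and Mest are higher in Somite A in all 3 libraries.

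Notch pathway and clock genes were lower in Somite A without an exception among those called. Lfng, Dll1, Dll3 and Hes7 of this list are front markers too. Of 16 genes 14 were tested, 11 were lower, 0 were higher and 3 were not called, and the median log2 change was -1.19 (also 11 lower and 0 higher without the anterior part). Feedback genes of the pathway had large changes. Lfng, the glycosyltransferase through which the clock tunes Notch, was at 57.96, 38.7 and 22.4 CPM in the front and 1.09, 1.13 and 0.4 CPM in Somite A (-5.62 ± 0.16, adjusted p = 1.41e-17). Hes5, a Notch target repressor, was at 51.7, 28.2 and 21 CPM in the front and 4.81, 1.95 and 2.001 CPM in Somite A (-3.46 ± 0.13), and Nrarp, a target that dampens Notch, at 121, 103 and 41.5 CPM in the front and 14.5, 12.3 and 9.37 CPM in Somite A (-2.79 ± 0.12). In all 3 genes each front lay above each Somite A sum, the anterior front being the lowest front. Of the ligands, Dll3 was at 69.5, 58.98 and 43.4 CPM in the front and 13.5, 12.3 and 14.5 CPM in Somite A (-2.06 ± 0.12) and Dll1 at 77.5, 67.8 and 22.6 CPM in the front and 51.99, 44.6 and 26.9 CPM in Somite A (-0.39 ± 0.10, adjusted p = 0.00643). Dll1 was lower in Somite A in both whole libraries and slightly higher in the anterior part, and it was not called without whole replicate 1 (-0.18) or without whole replicate 2 (-0.32). Without the anterior part Dll1 was called, at -0.58. Of the receptors, Notch1 was at 276, 272 and 116 CPM in the front and 94.04, 97.6 and 76.1 CPM in Somite A (-1.24 ± 0.10) and Notch2 at 75.6, 73.1 and 26.8 CPM in the front and 28.2, 37.4 and 15.4 CPM in Somite A (-1.15 ± 0.10). Hes7, the core oscillator of the PSM, was at 23.8, 22.9 and 9.33 CPM in the front and 6.56, 9.56 and 2.12 CPM in Somite A (-1.76 ± 0.16), and Hey2 at 13.5, 12.8 and 6.53 CPM in the front and 5.63, 4.701 and 2.28 CPM in Somite A (-1.36 ± 0.17). Hes1, a related repressor, was at 89.4, 228 and 101 CPM in the front and 102, 209.8 and 98.5 CPM in Somite A and was not called (0.02 ± 0.06, adjusted p = 0.83), and neither was Rbpj (-0.02 ± 0.07, adjusted p = 0.88). Levels of Hes1 differed more between libraries than between sides.

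**Figure D3:**
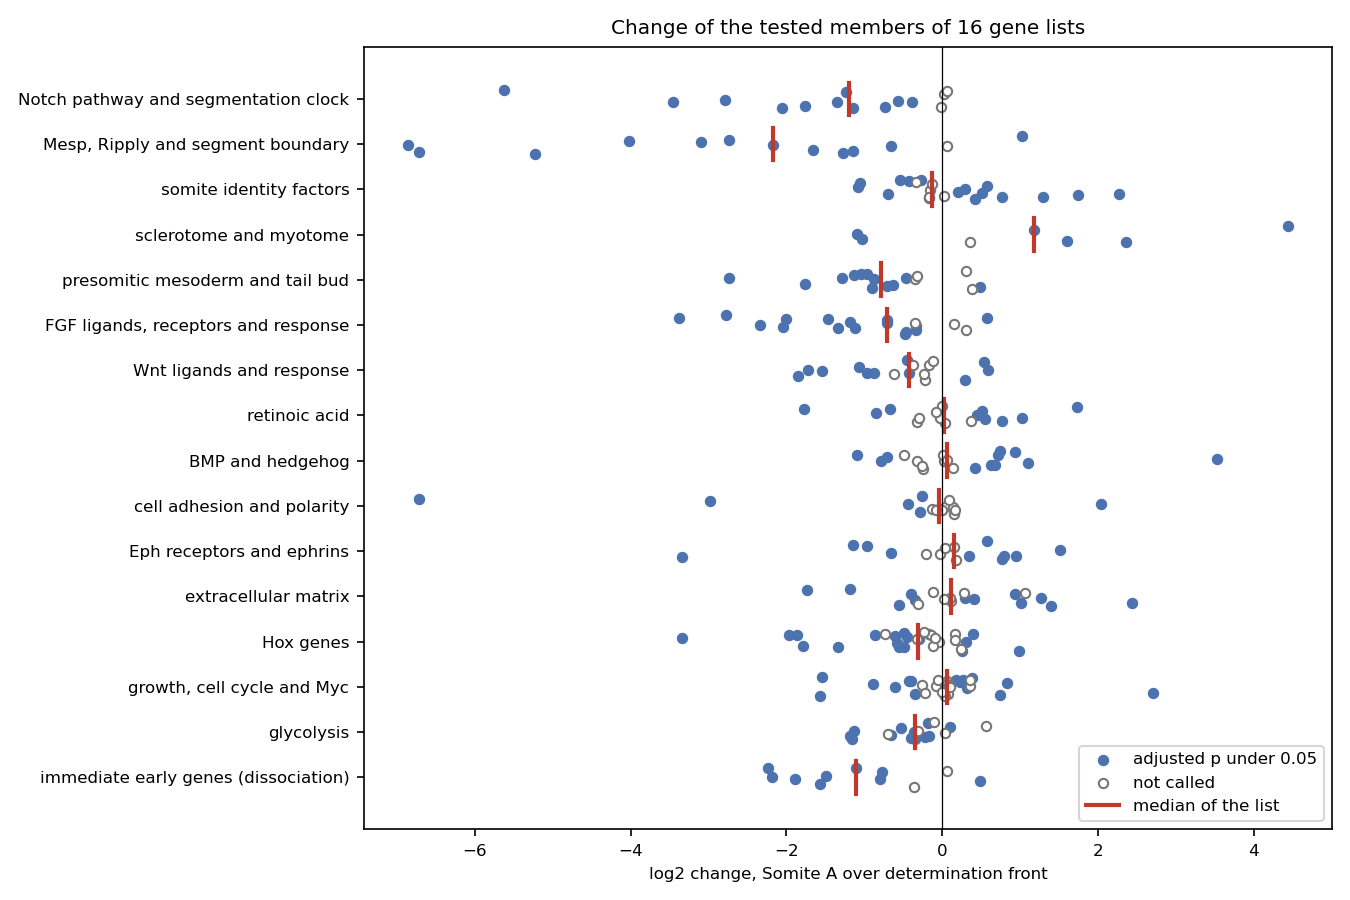
Log2 change, Somite A over determination front (x axis), of every tested member of 16 gene lists (y axis). Filled points were called at an adjusted p under 0.05, open points were not, and the red bar is the median of the list, which lies furthest left for the boundary list (-2.17), the Notch list (-1.19) and the immediate early genes (-1.10).

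FGF signalling genes were mostly lower in Somite A: of 21 genes 19 were tested, 15 were lower, 1 was higher (Flrt3, at 0.57 ± 0.09, with 0.36 without whole replicate 1) and 3 were not called (median -0.71, and 14 lower and 1 higher without the anterior part). The list holds ligands, receptors and feedback targets. Fgf18 was the best measured ligand that was lower, at 72.2, 78.3 and 68.8 CPM in the front and 21.7, 25.3 and 32.2 CPM in Somite A (-1.47 ± 0.10). Fgf15 (-3.38 ± 0.45) and Fgf3 (-2.78 ± 0.38) were also lower, from at most 3.96 and 3.79 CPM in any front, and Fgf3 stood at -3.38 without whole replicate 1. Fgf8, the main PSM ligand, was at 16.7, 27.3 and 15.2 CPM in the front and 23.7, 23.8 and 19.1 CPM in Somite A and was not called (0.30 ± 0.12, adjusted p = 0.0618), but it was called higher without whole replicate 2, at 0.44. The receptor Fgfr1 was at 182, 197 and 91 CPM in the front and 66.4, 74.2 and 59.1 CPM in Somite A (-1.18 ± 0.10). Among targets of the pathway, the ETS factor Etv4 was at 29.1, 23.3 and 49 CPM in the front and 7.93, 7.13 and 9.85 CPM in Somite A (-2.05 ± 0.12) and Etv5 at 10.3, 17.2 and 10.5 CPM in the front and 2.79, 4.86 and 2.12 CPM in Somite A (-2.0 ± 0.19). The feedback inhibitor Spry2 was at 55.05, 56.3 and 13.1 CPM in the front and 22.1, 18.97 and 6.24 CPM in Somite A (-1.33 ± 0.10), where the anterior front was below both whole Somite A sums, and Spry4 had a log2 change of -2.34 ± 0.35 from at most 3.52 CPM. Etv1 was not called (0.16 ± 0.14, adjusted p = 0.45).

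In the Wnt list, 17 of 25 genes were tested, 8 were lower, 3 higher and 6 not called (median -0.42), and 9 were lower and 3 higher without the anterior part. The 3 higher ones were Tcf7l1 (0.58 ± 0.08), a repressing factor of the pathway, and the secreted Wnt antagonists Sfrp1 (0.53 ± 0.11) and Sfrp2 (0.30 ± 0.10), of which Sfrp2 was not called without whole replicate 1 (0.20) or 2 (0.23) and stood at 0.45 without the anterior part. Lef1, a transcription factor of the pathway and itself a target, was at 250.5, 321 and 109 CPM in the front and 64.02, 73.9 and 52.5 CPM in Somite A (-1.73 ± 0.11, adjusted p = 2.25e-11). Axin2, a feedback target, was at 34.95, 38.3 and 16.8 CPM in the front and 15.1, 21.6 and 8.16 CPM in Somite A (-1.07 ± 0.11), and the receptor Fzd10 at 30.8, 36.5 and 27.1 CPM in the front and 7.82, 13.5 and 6.92 CPM in Somite A (-1.85 ± 0.12). Dact1, which acts on Dishevelled, was at 71.8, 53.3 and 34.8 CPM in the front and 17.9, 9.73 and 7.04 CPM in Somite A (-2.17 ± 0.10). Ccnd1, a G1 cyclin, was at 259.9, 301 and 272 CPM in the front and 84.1, 125 and 87.1 CPM in Somite A (-1.54 ± 0.06). Of these genes Axin2 alone overlapped between the sides, through its low anterior front. Tcf7 (-0.22 ± 0.12, adjusted p = 0.19) and Tcf7l2 (-0.12 ± 0.08, adjusted p = 0.30), 2 further factors of the family, were not called. Rspo3, a Wnt-enhancing ligand that the naming rule did not select and that was picked after its values were seen, was at 58.1, 68.7 and 35 CPM in the front and 29.2, 34.04 and 18.7 CPM in Somite A (-0.97 ± 0.08).

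Of 20 genes of the PSM and tail bud 16 were tested, 11 were lower in Somite A, 1 was higher (Pdgfra, a receptor of paraxial mesoderm, at 0.49 ± 0.09) and 4 were not called (median -0.79, and 10 lower and 1 higher without the anterior part). T (Brachyury), a tail bud factor, was at 7.57, 7.48 and 2.8 CPM in the front and 3.55, 3.08 and 1.28 CPM in Somite A (-1.13 ± 0.22). Sp8, a zinc finger factor, was at 10.1, 7.48 and 1.87 CPM in the front and 3.72, 3.89 and 0.84 CPM in Somite A (-1.29 ± 0.22, and not called without whole replicate 1, at -1.01), and Cdx1, a caudal homeobox factor, at 23.98, 13.6 and 27.3 CPM in the front and 10.3, 9.403 and 13.6 CPM in Somite A (-1.04 ± 0.12). Nkx1-2 was not called (0.38 ± 0.39, adjusted p = 0.51).

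The neighbouring clusters show where these levels stand along the trunk. Late PSM cells are posterior to the front. There were 537 of them in the whole libraries and 0 in the anterior part, so their values are of 2 libraries. The 2401 Somite B cells are a second somite cluster. These levels are a description on a scale set over all 4 clusters, and contrasts with late PSM would share the front. Tbx6 was at 118 and 102 CPM in late PSM, Hes7 at 260.2 and 252 CPM and Dll3 at 249.7 and 246 CPM, all far above both whole fronts. For these genes most of the drop on the CPM scale thus lay before the front. Ripply2 was at 13.1 and 9.04 CPM in late PSM, Pcdh8 at 12.99 and 13.6 CPM and Cer1 at 0.443 and 0 CPM. These genes were highest at the front in both whole libraries. Aldh1a2 was at 10.2 and 31.6 CPM in late PSM and also highest at the front. Mesp1 and Mesp2 were at 90.8 and 24.4 CPM and 39.4 and 16.3 CPM in late PSM, so neither was particular to the cluster named for the front. Lef1 was at 244 and 290.1 CPM in late PSM, at about its level in the whole fronts. Tcf15 was at 243 and 174 CPM in late PSM and at 836, 665 and 658 CPM in Somite B, so its rise also lay before the front. Igfbp5 went on to 1012, 1566 and 1180.5 CPM in Somite B and Mest to 1381, 1546 and 1968 CPM. Uncx was at 15.6 and 14.5 CPM in late PSM and 329.7, 228 and 83.1 CPM in Somite B.

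**Figure D4:**
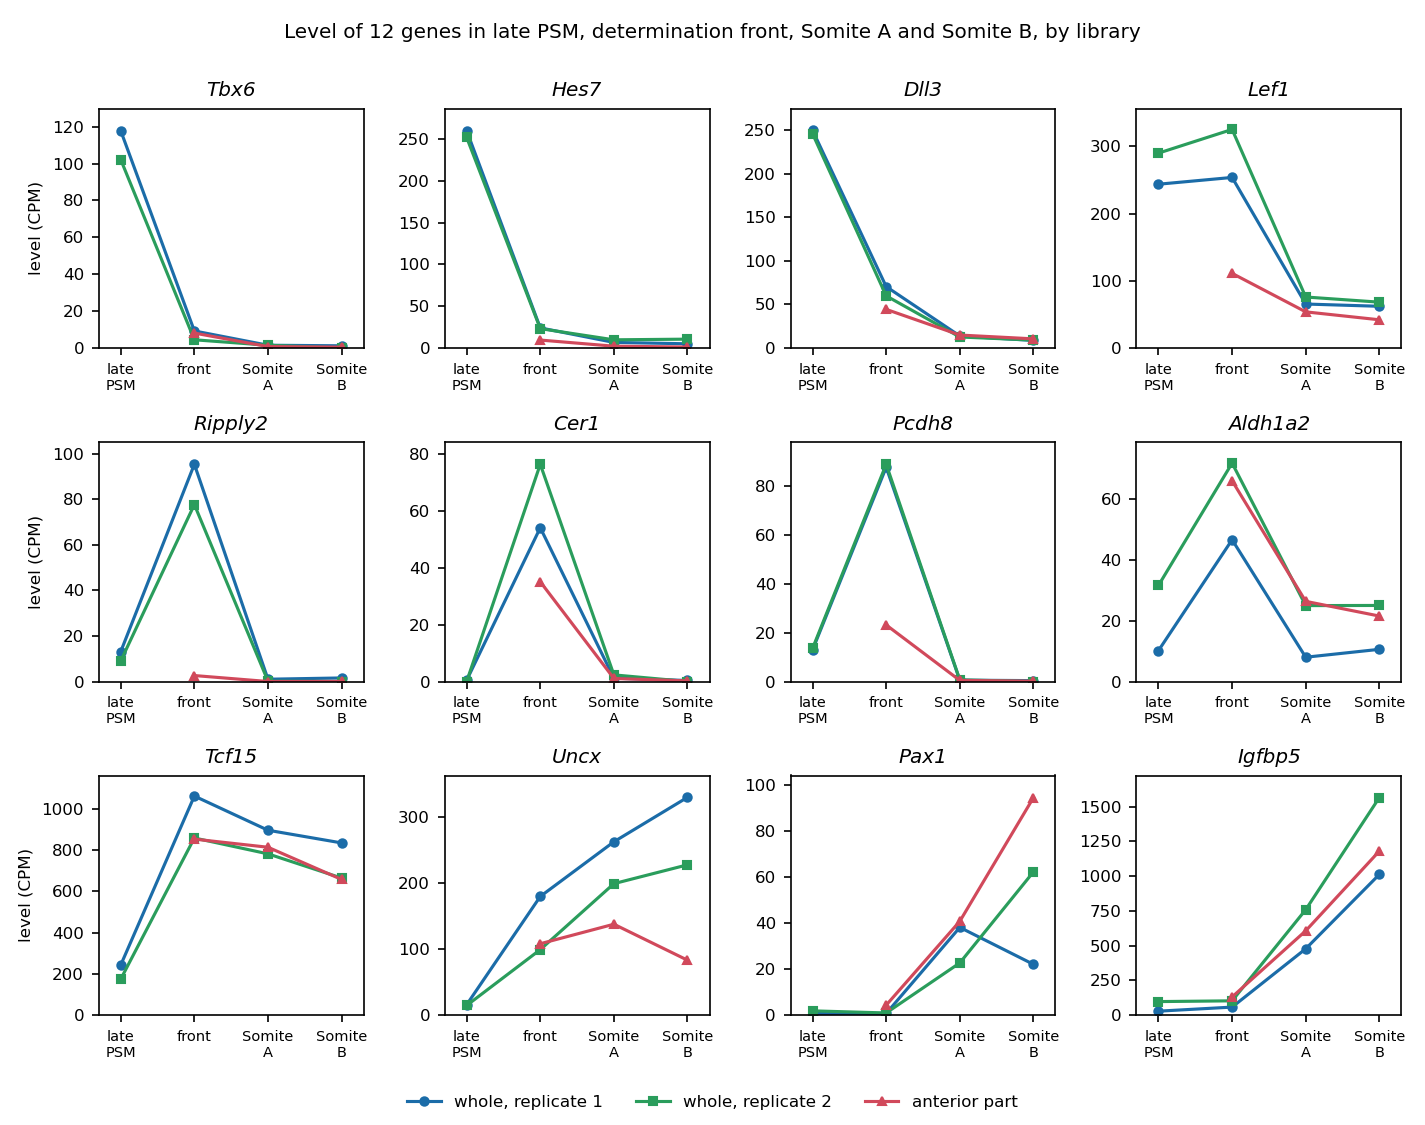
Level in CPM (y axis, from 0) of 12 genes in late PSM, determination front, Somite A and Somite B (x axis), with 1 line for each library and no late PSM value for the anterior part. Tbx6, Hes7 and Dll3 are highest in late PSM, Ripply2, Cer1, Pcdh8 and Aldh1a2 at the front, and Igfbp5 in Somite B.

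Somite identity factors moved both ways. Of 22 genes 21 were tested, 9 were higher in Somite A, 7 lower and 5 not called (median -0.14). Without the anterior part 9 were higher and 8 lower. Uncx, a homeobox factor of the caudal somite compartment, was at 177, 97.7 and 106 CPM in the front and 257, 194 and 134 CPM in Somite A (0.57 ± 0.07, adjusted p = 1.16e-06). It was higher in Somite A within every library, although the sides overlapped between libraries. Tbx18, its counterpart in the rostral compartment, was low on both sides at 6.12, 17.2 and 4.43 CPM in the front and 7.44, 5.35 and 3.72 CPM in Somite A and was not called (-0.34 ± 0.25, adjusted p = 0.34), but it was called lower without whole replicate 1, at -0.96. Pax3, a paired box factor of dermomyotome precursors, was at 137, 124 and 149 CPM in the front and 183, 148 and 166 CPM in Somite A (0.29 ± 0.06, and not called without whole replicate 1, at 0.20). Meox2 was at 12.6, 6.602 and 8.63 CPM in the front and 38.2, 26.1 and 33.6 CPM in Somite A (1.74 ± 0.12), and in contrast to Meox1 it did not overlap between the sides. Eya1, a co-activator of homeobox factors, was at 16.6, 14.5 and 22.6 CPM in the front and 46.3, 39.1 and 44.4 CPM in Somite A (1.29 ± 0.10). The forkhead factors went the other way. Foxp1 was at 297, 297 and 256 CPM in the front and 125, 142 and 143 CPM in Somite A (-1.06 ± 0.06) and Foxc2 at 193, 237 and 182 CPM in the front and 129, 145 and 141 CPM in Somite A (-0.54 ± 0.06), while Foxc1 was not called (-0.16 ± 0.06, adjusted p = 0.0553) except without the anterior part, at -0.23. Prrx1, a homeobox factor of mesenchyme, was at 3.98, 11.4 and 2.8 CPM in the front and 2.296, 1.78 and 2.28 CPM in Somite A (-1.08 ± 0.30), and was not called without whole replicate 2, at -0.61.

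Genes of the derivatives of the somite moved both ways. In the sclerotome and myotome list, 12 of 14 symbols were in the count table and 7 passed the filter on low counts, of which 4 were higher, 2 lower and 1 not called (median 1.18), and 3 were higher and 2 lower without the anterior part. Myf5, Myod1 and Lbx1, factors of muscle precursors and committed muscle cells, were among those that did not pass. Pax1, the early factor of the sclerotome, was at 0.68, 0.88 and 4.2 CPM in the front and 37.2, 22.05 and 39.7 CPM in Somite A (4.44 ± 0.23, adjusted p = 6.27e-13), with every Somite A sum far above every front. Its log2 change was 3.46 without whole replicate 1 and 5.56 without the anterior part. Scx, a bHLH factor of tendon progenitors, was at 4.17, 3.08 and 12.8 CPM in the front and 34.8, 26.6 and 33.98 CPM in Somite A (2.37 ± 0.19, with 1.75 without whole replicate 1 and 3.06 without the anterior part). Pax9, the relative of Pax1, was at 1.46, 3.96 and 2.8 CPM in the front and 9.18, 4.701 and 3.84 CPM in Somite A (1.60 ± 0.33). Without whole replicate 1 it was not called, at 0.37. Pax7, a factor of the dermomyotome, was at 1.36, 0.88 and 0.933 CPM in the front and 2.46, 2.92 and 2.88 CPM in Somite A (1.18 ± 0.34), and was not called without whole replicate 2 (1.09) or the anterior part (1.02). Sox9, a factor of cartilage that is also made in other tissues, was lower, at 15.6, 18.05 and 7.23 CPM in the front and 8.36, 7.13 and 2.84 CPM in Somite A (-1.09 ± 0.16), and so was Met, the receptor of hepatocyte growth factor (-1.03 ± 0.16). Des, a muscle filament, was not called (0.36 ± 0.22, adjusted p = 0.25).

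Retinoic acid is made in somites and opposes FGF at the front. Of 18 genes of this pathway 16 were tested, 6 were higher, 3 lower and 7 not called (median 0.02), with the same counts of calls without the anterior part. Over all tested genes, 13.3% were higher and 15.3% lower. Aldh1a2, the enzyme that makes retinoic acid in somites, was at 46.02, 70.9 and 64.6 CPM in the front and 7.82, 24.3 and 25.7 CPM in Somite A (-1.78 ± 0.14, adjusted p = 8.52e-10). It was lower in Somite A in each library. The other lower genes were the binding protein Crabp1 (-0.85 ± 0.07) and the receptor Rarg (-0.67 ± 0.20), which was not called without whole replicate 2 (-0.64) or the anterior part (-0.44) and stood at -1.06 without whole replicate 1. Dhrs3, which lowers retinaldehyde, was at 14.95, 6.16 and 32.9 CPM in the front and 33.4, 30.5 and 50.03 CPM in Somite A (1.03 ± 0.14), and Nr2f1 at 19.2, 13.2 and 13.3 CPM in the front and 63.4, 53.2 and 40.1 CPM in Somite A (1.73 ± 0.10). Crabp2 (-0.07 ± 0.10, adjusted p = 0.63) and Rxrb (-0.0048 ± 0.10, adjusted p = 0.98) were not called, although Crabp2 was called lower without the anterior part, at -0.24.

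In the BMP and hedgehog list, 19 of 25 genes were tested, 8 were higher, 3 lower and 8 not called (median 0.06; 8 higher and 4 lower without the anterior part). The shares over all tested genes were 13.3% higher and 15.3% lower. Hedgehog from the notochord induces the sclerotome. Boc, a hedgehog co-receptor, was at 21.5, 18.05 and 30.1 CPM in the front and 51.4, 42.96 and 53.1 CPM in Somite A (1.10 ± 0.10). Gas1, another co-receptor, was at 223, 246 and 236 CPM in the front and 417, 384 and 367 CPM in Somite A (0.74 ± 0.05), the effector Gli2 at 11.1, 16.3 and 16.3 CPM in the front and 23.7, 21.9 and 20.8 CPM in Somite A (0.72 ± 0.13) and the receptor Ptch1 at 12.3, 17.6 and 15.9 CPM in the front and 22.5, 22.5 and 21.2 CPM in Somite A (0.62 ± 0.12). The last 3 were picked after their values were seen. Without whole replicate 1, Gli2 (0.38) and Ptch1 (0.40) were not called. Smo (0.14 ± 0.07, adjusted p = 0.13) and Gli3 (0.06 ± 0.07, adjusted p = 0.59) were not called. Gli1 and Hhip of the same list did not pass the filter on low counts. A response to hedgehog was not tested. Of the BMP ligands, Bmp5 was at 0.583, 0.44 and 0.233 CPM in the front and 6.67, 4.701 and 3.56 CPM in Somite A (3.54 ± 0.36) and Bmp4 at 3.495, 4.401 and 1.17 CPM in the front and 1.203, 1.297 and 1.44 CPM in Somite A (-1.10 ± 0.34, adjusted p = 0.0177, and not called without whole replicate 2, at -0.95). The other lower genes were the BMP targets Id2 (-0.79 ± 0.11) and Id1 (-0.71 ± 0.14), of which Id1 was not called without whole replicate 1, at -0.30. Without the anterior part Id1 stood at -0.98 and Bmp4 at -1.59, and both were called.

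Hox genes give cells their place along the trunk. Of 39 genes 28 were tested, 13 were lower in Somite A, 4 were higher and 11 were not called (median -0.31; 14 lower and 5 higher without the anterior part). By paralog group, 6 of the 12 tested genes of groups 1 to 4 were lower and 1 was higher, 3 of the 11 of groups 5 to 8 were lower and 3 higher, and all 4 tested genes of group 9 (Hoxa9, Hoxb9, Hoxc9 and Hoxd9) were lower, with log2 changes from -1.97 to -0.59. In the HoxD cluster, Hoxd1 was at 30.4, 29.5 and 5.37 CPM in the front and 2.296, 2.92 and 1.04 CPM in Somite A (-3.34 ± 0.20, adjusted p = 3.86e-12). Hoxd8 was at 40.1, 27.3 and 14.7 CPM in the front and 17.9, 9.73 and 4.48 CPM in Somite A (-1.34 ± 0.12) and Hoxd9 at 45.6, 18.9 and 4.43 CPM in the front and 13.3, 3.24 and 0.56 CPM in Somite A (-1.97 ± 0.15). Hoxd3 (-0.55 ± 0.14) and Hoxd4 (-0.60 ± 0.09), picked after their values were seen, were lower by less, and Hoxd3 was not called without whole replicate 2, at -0.41. Hoxd9 stood at -2.70 without whole replicate 1. All 5 tested genes of the cluster were thus lower in Somite A, Hoxd1, Hoxd8 and Hoxd9 by more than Hoxd3 and Hoxd4, while Hoxd10 to Hoxd13 were not tested. Hoxb1 was at 79.03, 76.6 and 38.5 CPM in the front and 22.3, 21.9 and 11.6 CPM in Somite A (-1.79 ± 0.08), and Hoxa9 at 38.9, 22.01 and 2.57 CPM in the front and 11.4, 6.32 and 0.12 CPM in Somite A (-1.86 ± 0.17). For Hoxa9 the anterior front lay below both whole Somite A sums, and for Hoxd9 below that of whole replicate 1, so these levels differed between libraries as well as between sides. Hoxb9, also picked afterwards (-0.59 ± 0.13), stood at -0.995 without whole replicate 1 and -0.23 without the anterior part, and was not called without whole replicate 2, at -0.58, nor with the posterior part in place of the anterior part, at -0.12 (adjusted p = 0.54). Hoxc9 stood at -1.39 and Hoxd4 at -0.38 without whole replicate 1. The 4 higher genes were Hoxc5 (0.98 ± 0.18), Hoxa2 (0.40 ± 0.11), Hoxb7 (0.30 ± 0.08) and Hoxa5 (0.26 ± 0.08). Of these Hoxa2 was not called without the anterior part (0.31) and Hoxa5 without whole replicate 1 (0.21) or 2 (0.19). Hoxb4 (-0.14 ± 0.08, adjusted p = 0.21) and Hoxb8 (0.16 ± 0.06, adjusted p = 0.0607) were not called, except without the anterior part, at -0.29 and 0.23.

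**Figure D5:**
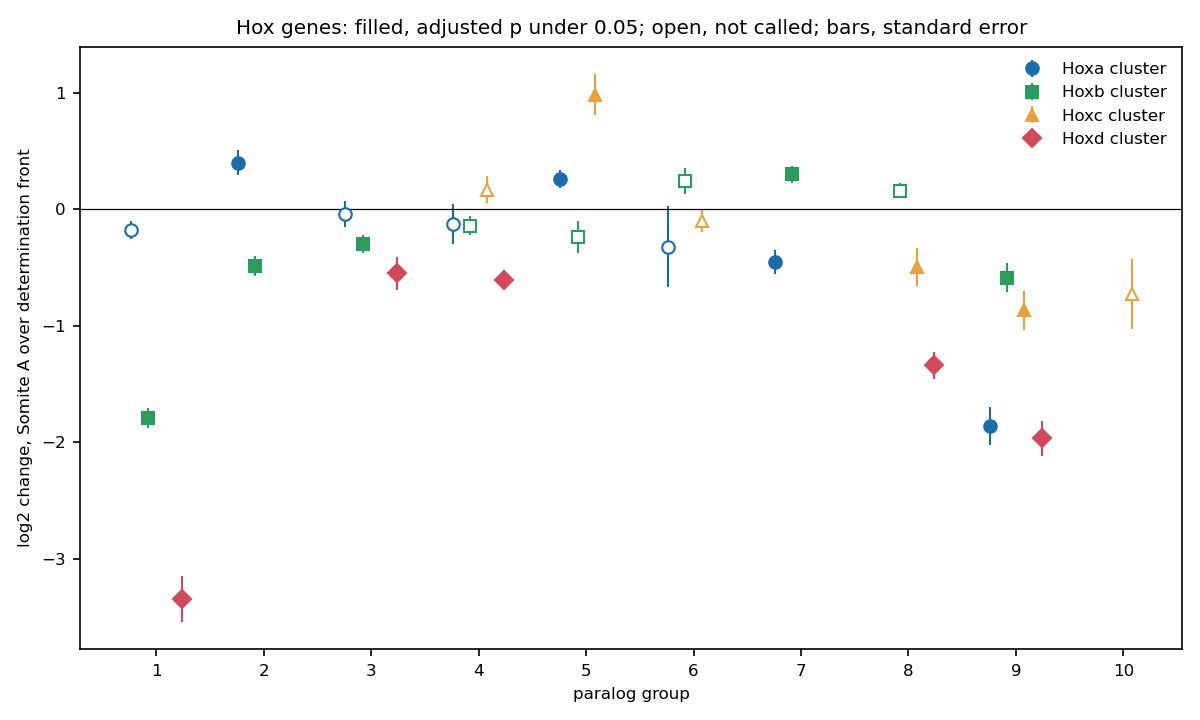
Log2 change, Somite A over determination front (y axis), with its standard error, of the 28 tested Hox genes by paralog group (x axis), coloured by cluster. Filled points were called and open points were not. Hoxd1, Hoxd9, Hoxa9 and Hoxb1 lie lowest, and Hoxc5 lies highest.

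Adhesion, guidance and matrix genes differed by member. In the adhesion and polarity list, 15 of 24 were tested, 5 were lower, 1 higher and 9 not called (median -0.05; the same counts without the anterior part). Among all tested genes 15.3% were lower and 13.3% higher, so this list was not far from that share. Pcdh19 was at 159, 167 and 57.2 CPM in the front and 16.6, 16.7 and 11.4 CPM in Somite A (-2.98 ± 0.12) and was lower together with Pcdh8, while Itga6 was higher. The smaller changes were those of Cdh11 (-0.44 ± 0.09), Tjp1 (-0.28 ± 0.08) and Ncam1 (-0.26 ± 0.06), and none of these 3 was called without whole replicate 1 (-0.27, -0.23 and -0.13). Tjp1 (-0.24) and Ncam1 (-0.25) were also not called without whole replicate 2, and Ncam1 stood at -0.40 without the anterior part. Cdh2, the cadherin of somite epithelium, was at 139, 153 and 80.03 CPM in the front and 143, 151 and 84.5 CPM in Somite A and was not called (0.03 ± 0.06, adjusted p = 0.72). Itgb1 was not called either (-0.07 ± 0.06, adjusted p = 0.37). Of 18 Eph receptors and ephrins 15 were tested, 6 were higher, 4 lower and 5 not called (median 0.15; the same counts without the anterior part). Here too the shares over all genes were 13.3% higher and 15.3% lower. Ephb1 was at 17.9, 24.6 and 14.5 CPM in the front and 1.26, 1.297 and 2.32 CPM in Somite A (-3.34 ± 0.22, and -3.93 without the anterior part) and Epha7 at 7.18, 12.8 and 12.1 CPM in the front and 24.9, 30.2 and 29.5 CPM in Somite A (1.51 ± 0.13). The pair moved in opposite directions with no overlap between sides. Besides Ephb1 and Epha4, the ephrins Efna3 (-0.97 ± 0.12) and Efnb2 (-0.65 ± 0.07) were lower. Efna4 (0.15 ± 0.07, adjusted p = 0.11) and Efnb3 (0.03 ± 0.12, adjusted p = 0.94) were not called.

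Of 24 matrix genes 19 were tested, 7 were higher, 5 lower and 7 not called (median 0.11; 7 higher and 4 lower without the anterior part). Over all tested genes these shares were 13.3% and 15.3%. The fibrillar collagen genes Col1a2 (2.44 ± 0.30), Col2a1 (1.27 ± 0.10) and Col3a1 (1.40 ± 0.30) were higher, and Col2a1 was the best measured of them at 20.7, 13.6 and 17.03 CPM in the front and 47.9, 41.2 and 39.1 CPM in Somite A. The laminin chains went apart. Lama5 was at 7.18, 9.24 and 10.5 CPM in the front and 16.8, 23.7 and 14.6 CPM in Somite A (1.01 ± 0.15) and Lama1 at 23.5, 27.3 and 14.5 CPM in the front and 6.56, 7.46 and 5.16 CPM in Somite A (-1.74 ± 0.13). Has2, which makes hyaluronan, had a log2 change of -1.18 ± 0.18. Also lower were Fn1, the fibronectin gene (-0.55 ± 0.06), Hspg2 (-0.41 ± 0.12) and Lamc1 (-0.35 ± 0.11). Neither of the last pair was called without whole replicate 1, at -0.39 and -0.29. Hspg2 was also not called without the anterior part (-0.37), nor Lamc1 without whole replicate 2 (-0.32). Fbn2 (-0.12 ± 0.05, adjusted p = 0.0618) and Col4a1 (0.11 ± 0.06, adjusted p = 0.20) were not called, but Fbn2 was called lower without whole replicate 2, at -0.17.

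In the list of growth, cell cycle and Myc genes, 28 of 29 were tested, 8 were higher, 7 lower and 13 not called (median 0.07; 7 higher and 5 lower without the anterior part). For comparison, 13.3% of all tested genes were higher and 15.3% lower. Mycn, the Myc gene of embryonic progenitors, was at 85.2, 95.1 and 45.5 CPM in the front and 27.01, 37.3 and 14.9 CPM in Somite A (-1.56 ± 0.08, adjusted p = 4.33e-13). Among the proliferation genes Mki67 (0.32 ± 0.05, adjusted p = 6.67e-05) and Mcm5 (0.18 ± 0.05, adjusted p = 0.0153), picked after their values were seen, were slightly higher in Somite A. Top2a was not called, at 476, 679 and 432 CPM in the front and 487, 637 and 477 CPM in Somite A (0.03 ± 0.05, adjusted p = 0.65), and Pcna was not called (0.07 ± 0.05, adjusted p = 0.30). Among G1 cells alone Top2a was lower in Somite A, at -0.37. Glycolysis is high in the posterior PSM of embryos. Of its 18 genes, all tested, 12 were lower in Somite A, 1 was higher (Gapdh, at 0.11 ± 0.04) and 5 were not called (median -0.34, with the same counts without the anterior part). Gapdh was not called without whole replicate 1 (0.12) or 2 (0.06). The hexokinase Hk2 was at 74.8, 173 and 56.9 CPM in the front and 32.6, 71.7 and 26.9 CPM in Somite A (-1.19 ± 0.07), the glucose transporter Slc2a1 at 92.9, 152 and 108 CPM in the front and 45.9, 66.3 and 46.2 CPM in Somite A (-1.13 ± 0.06) and the lactate transporter Slc16a3 at 53.1, 72.6 and 62.5 CPM in the front and 22.03, 34.4 and 29.2 CPM in Somite A (-1.16 ± 0.08). Hk2 overlapped between the sides because whole replicate 2 was higher on both. Eno1 (-0.10 ± 0.04, adjusted p = 0.0645) and Gpi1 (0.03 ± 0.05, adjusted p = 0.67) were not called.

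The shares of cells with a UMI were compared after each cell was thinned to 5000 UMIs, which left out 12 front and 67 Somite A cells of whole replicate 2 and 1 front and 4 Somite A cells of the anterior part. Shares in spinal cord cells of the same library are given beside them, with medians of 15940, 9423 and 9300 UMIs per cell, but the anterior part held only 37 of them. Free RNA can give UMIs in any cell type, but it was not measured here. Spinal cord cells may also express some of these genes, such as Pax3, so their share is no measured background. Ripply2 was found in 13.5%, 11.8% and 1.5% of front cells, 0.43%, 0.17% and 0% of Somite A cells and 0.57%, 0.13% and 0% of spinal cord cells. Without thinning, the front shares were 19.02%, 16.9% and 2.61%. For Ripply2, Somite A was thus close to the spinal cord share in each library. Lfng was found in 18.1%, 16.4% and 6.74% of front cells, 0.6%, 0.52% and 0.11% of Somite A cells and 2.65%, 2.12% and 0% of spinal cord cells, so that in the whole libraries spinal cord was above Somite A. Mesp2 was found in 4.23%, 6.67% and 0.75% of front cells and 0.85%, 0.69% and 0.27% of Somite A cells, against 0.57%, 0.13% and 0% of spinal cord cells. After thinning, these 3 markers of the front were thus found in a minority of its cells.

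Tcf15 was found in 97.2%, 94.9% and 96.3% of front cells and 95.7%, 96.01% and 96.7% of Somite A cells, against 12.1%, 9.93% and 64.9% of spinal cord cells. Uncx was found in 39.7%, 32.8% and 32.2% of front cells (59.2%, 43.5% and 60.1% unthinned) and in 56.9%, 49.8% and 41.9% of Somite A cells, with 6.44%, 2.91% and 18.9% in spinal cord cells. Its share was higher in Somite A in each library. Tbx18 was found in 3.25%, 6.15% and 1.12% of front cells and 3.07%, 2.95% and 1.6% of Somite A cells. Cells with a UMI of both Uncx and Tbx18, the genes of opposite somite compartments, made up 0.16%, 1.54% and 0% of the front and 0.26%, 0.17% and 0.05% of Somite A. Aldh1a2 was found in 16.9%, 23.6% and 22.1% of front cells and 2.9%, 9.2% and 10.6% of Somite A cells, against 4.36%, 1.06% and 2.7% of spinal cord cells, so that the Somite A share of whole replicate 1 was below that of spinal cord. Pax3 was found in 46.8%, 44.6% and 52.8% of front cells and 55.1%, 50.9% and 50.4% of Somite A cells, and in 15.9%, 11.5% and 43.2% of spinal cord cells. The Pax3 share of Somite A was above the front in both whole libraries and below it in the anterior part. Tbx6 was found in 5.85%, 2.05% and 3% of front cells and 0.6%, 0.69% and 0.32% of Somite A cells, and Meox1 in 85.4%, 89.7% and 92.9% and in 87.5%, 86.6% and 93.8%.

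Markers of other cell types were low on both sides. The summed level of the 10 neural markers was 30.9, 45.3 and 20.3 CPM in the front and 16.01, 27.2 and 8.32 CPM in Somite A. Of the 5 tested 3 were lower in Somite A: Sox2 (-1.16 ± 0.15), Tubb3 (-1.44 ± 0.26) and Irx3 (-1.05 ± 0.25), while Pax6 (-0.06 ± 0.37, adjusted p = 0.93) and Sox3 (0.23 ± 0.31, adjusted p = 0.62) were not called. The 11 endoderm markers summed to 3.302 to 4.899 CPM in the front and 5.25 to 8.08 CPM in Somite A. Of the 2 tested, Krt18 was called higher (1.33 ± 0.38, adjusted p = 0.0105) but not without whole replicate 1 (1.28) or the anterior part (1.25), Epcam was not called (0.41 ± 0.39, adjusted p = 0.47), and Cldn6 was at 0 in all sums. Endothelial and blood markers summed to at most 6.701 CPM, with Cdh5, Tek and Cd34 at 0, and the 1 gene tested, Etv2, was lower (-0.70 ± 0.23) but not called without whole replicate 1 (-0.43) or 2 (-0.71). The pluripotency markers summed to 11.4 to 14.9 CPM in the front and 10.5 to 16.2 CPM in Somite A, and of the 2 tested 0 were called (Pou5f1 at -0.32 ± 0.30, adjusted p = 0.46, and Ifitm3 at -0.16 ± 0.17, adjusted p = 0.52). The markers of intermediate and lateral mesoderm summed to 15.3 to 36.98 CPM in the front and 17.7 to 28.04 CPM in Somite A, with Pax8 and Hand1 at 0. Of the 3 tested, Lhx1 (-0.93 ± 0.16) and Prrx1 (-1.08 ± 0.30) were lower and 1 was higher. Prrx1 was not called without whole replicate 2, at -0.61. The higher one was Wt1, a zinc finger factor of the kidney and the body cavity lining, at 1.36, 1.32 and 1.4 CPM in the front and 11.5, 14.3 and 15.2 CPM in Somite A (3.23 ± 0.22, adjusted p = 5.97e-11). The part of these markers in the results above was not tested.

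Immediate early genes, which dissociation can induce, were measured as a check on handling. The 16 genes summed to 303, 259 and 309 CPM in the front and 265, 239 and 278 CPM in Somite A. Of the 11 tested 8 were lower in Somite A, 1 was higher (Jund, at 0.49 ± 0.06) and 2 were not called (median -1.10), and 5 were lower and 1 higher without the anterior part. Jun was at 48.9, 48.4 and 51.8 CPM in the front and 15.2, 15.4 and 19.6 CPM in Somite A (-1.57 ± 0.09), Junb at 19.8, 6.16 and 3.5 CPM in the front and 3.72, 2.76 and 0.6 CPM in Somite A (-2.24 ± 0.22) and Egr1 at 7.28, 11 and 8.63 CPM in the front and 1.203, 2.59 and 3.56 CPM in Somite A (-1.88 ± 0.24). Atf3 had a log2 change of -1.50 ± 0.29 and was not called without whole replicate 1, at -0.84. Fos had a log2 change of -2.18 ± 0.44 that became -0.90 without the anterior part, and Fosb one of -1.10 ± 0.37 that became -0.01, and neither was called then. Fosb was also not called without whole replicate 2, at -1.48. Ier2 (0.06 ± 0.06, adjusted p = 0.52) and Dusp1 (-0.36 ± 0.16, adjusted p = 0.10) were not called. Both sides of a library had been dissociated together, and the part of handling was not tested.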

How the data were processed

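Single cells of wild-type stembryos were measured on the 10x platform. Per the labels, the build was mm10 and the tools were Cell Ranger 6.0 for the reads and Seurat 4.0.2 for the cells. The study's methods name a modified Ensembl annotation, filters on UMIs and mitochondrial share, and scaling on cell cycle scores before clustering. The authors deposited raw UMI counts per gene and cell (25595 genes, 26968 cells, every total equal to the annotation). Their cell annotation, as deposited, holds the count totals, the mitochondrial percent, the cell cycle scores, phase, batch and cluster name. There were 0 unused per-sample columns. No doublet caller was run, since the methods state an upper UMI limit, and 1.5 times the library mean was tried as a stricter one.

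Counts were summed per library and cluster and tested with edgeR 4.0.16 (R 4.3.3) by glmQLFit and glmQLFTest with TMM factors, filterByExpr by side and the library as a block, over 6 sums with 2 residual degrees of freedom, so that p-values rest largely on the spread shared between genes. Both sides of a block come from the same cell suspension. Their deviations from the side means correlated across genes with r = 0.644, 0.617 and 0.768 within a library. Between libraries r was at most -0.05. Centring each side on its mean over 3 libraries forces such negative values, so they are no separate contrast. Counts were also simulated for this comparison (12522 genes), with the same dispersion for every gene and the same change in every library. There 79 of 100 genes with an absolute log2 change of 1 and 98 of 100 with 2 were called, with 7 false calls. DESeq2 called 71 and 94, with 2 false calls. In the data some changes differed between libraries, so these rates need not hold for them. Named genes were the 12 highest and 12 lowest log2 changes among called genes with at least 50 CPM on the higher side and the same direction in all 3 libraries, list members called with an absolute log2 change of at least 1 (at most 8 a list), defining markers, the 2 members of each list with the highest level that were not called, and, outside that rule, the called members of a list where 5 or fewer moved one way. Genes picked after their values were seen are named as such. Values of some genes that the rule selects are not reported here. The comparison, the lists and the rule were chosen with earlier results of these data known. Shares have exact binomial intervals. The alternatives were no replicate block, DESeq2 1.42.0 and its size factors, no scaling factors, no filter, each library left out, the posterior part summed with or, added after seeing the data, put in place of the anterior part, the UMI limit and G1 cells only.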

Additional observations from a re-analysis of the deposited data

Results flagged for a closer look

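Bmp4, Dll1, Id1 and Ncam1 were called lower in Somite A over all 3 libraries, but within the anterior part alone the log2 ratio was above 0, at 0.22 for Bmp4, 0.24 for Dll1, 0.14 for Id1 and 0.014 for Ncam1, while both whole libraries were below 0. The anterior part is 1 library, so this difference was not tested. The Bmp4 sums were small, at 36, 10 and 5 UMIs in the front and 22, 8 and 36 UMIs in Somite A.

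The posterior part held 1140 determination front cells and 68 Somite A cells, which entered 2 of the alternatives and the check of the cluster names but not the main comparison. Of 146 named and called genes with at least 20 UMIs in these posterior sums, 127 moved in the same direction there. Most of these genes were named for their change in the main comparison, and the share over all genes was not counted. The posterior part also came from the same pool as the anterior part, so this count is a description and no replication. Whole replicate 1 at 96 h held 27 determination front cells (0.547% of its cells, exact interval 0.361 to 0.795), while replicate 2 at that time held 0 of 2649 cells, with an upper bound of 0.139%.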

How the results depend on the processing

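The number of calls depended on the test. Without the replicate block, which ignores that both sides come from 1 library, 257 genes were called (107 higher, 150 lower), 1389 had an unadjusted p under 0.05, and all 257 were also called with the block. The Wald test of DESeq2 called 1562 (584 higher, 978 lower), all of them in the main direction. G1 cells alone, with 45 to 172 front cells a library, called 1071 (493 higher, 578 lower). Leaving out each library gave 2168 to 3281 calls (965 to 1514 higher, 1203 to 1767 lower), lowest without whole replicate 1. With the posterior part in place of the anterior part, chosen after seeing the data, 2170 were called (946 higher, 1224 lower). Dropping the filter on low counts moved the share of higher calls from 46.5% to 58.0%, with a median log2 change of 0.08 over all genes. Causes were not tested. Over 12 alternatives the 191 named genes gave 2250 values: 2014 stayed on their side of the threshold with the same direction where called (42 uncalled values had another sign), 207 lost the call, 27 gained one and 2 reversed. Nkx1-2, not called, became -0.99 with the posterior part added to the anterior part, and Top2a, not called, became -0.37 in G1 cells. Of the 207 lost calls, 87 were lost without the block, 29 in G1 cells and 25 with the Wald test of DESeq2. A further 22 were lost without whole replicate 1, while DESeq2 size factors lost 1 and no scaling factors lost 0. Among G1 cells Asns moved from -1.08 to -0.46 and Slc45a4 from -1.78 to -0.94. Depth limits genes below a few CPM in the front of whole replicate 2, the smallest sum. Doublets were not called, and 65 of 268 anterior front cells exceeded 1.5 times their library's mean UMI count.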

Other observations

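Outside the lists, genes of amino acid supply and of the response to its shortage were lower in Somite A. The following 15 genes were put together after the values had been seen and are a description only: all 15 were tested and all 15 were lower, with a median log2 change of -1.61. Chac1, a glutathione-degrading enzyme induced by the factor Atf4, was at 14.95, 4.84 and 30.8 CPM in the front and 0.547, 0.811 and 0.64 CPM in Somite A (-5.01 ± 0.26, adjusted p = 7.34e-13, and -4.28 without the anterior part). Trib3, another Atf4 target, was at 9.03, 2.64 and 13.1 CPM in the front and 0.656, 0.811 and 1.28 CPM in Somite A (-3.35 ± 0.26), and Atf4 itself at 199, 144 and 219 CPM in the front and 86.2, 79.1 and 110.1 CPM in Somite A (-1.05 ± 0.06). Asns, the asparagine synthetase, was at 179, 162 and 342 CPM in the front and 87.5, 92.7 and 140.2 CPM in Somite A (-1.08 ± 0.06) and the cationic amino acid transporter Slc7a1 at 39.03, 39.2 and 36.4 CPM in the front and 6.07, 6.65 and 6.44 CPM in Somite A (-2.59 ± 0.11). Sesn2, Slc7a5, Slc3a2, Slc7a11, Slc6a9, Psat1, Phgdh, Shmt2, Ddit3 and Mthfd2 completed the group, with log2 changes from -2.21 to -0.42. Ddit3 was not called without whole replicate 1, at -0.18, and Slc7a11 stood at -2.68 then. The anterior front was the highest of all sums for Chac1, Trib3, Asns, Atf4 and Mthfd2. With the posterior part in place of the anterior part, Asns (-0.52, adjusted p = 0.0634), Phgdh (-0.11, adjusted p = 0.49) and Shmt2 (-0.36, adjusted p = 0.11) were not called. In the posterior part itself Asns ran the other way, at 202 CPM in the front and 301 CPM in its 68 Somite A cells, and so did Psat1, Phgdh, Shmt2 and Ddit3. Phgdh stood at -0.24 without the anterior part, and among G1 cells Phgdh (-0.02) and Ddit3 (-0.45) were not called. In late PSM, Chac1 was at 0.738 and 2.71 CPM and Asns at 83.97 and 94.9 CPM.

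Below 50 CPM, more genes had large differences, and those named here were picked after their values were seen. Runx1, a factor best known from blood, was at 18.7, 15.8 and 3.27 CPM in the front and 1.15, 1.62 and 0.48 CPM in Somite A (-3.59 ± 0.24). Myocd, a co-activator of smooth and heart muscle genes, was at 10.3, 14.5 and 5.6 CPM in the front and 0.984, 0.811 and 0.88 CPM in Somite A (-3.26 ± 0.26), and Tgfb1 at 26.2, 11.4 and 12.4 CPM in the front and 1.69, 2.27 and 1.56 CPM in Somite A (-3.35 ± 0.21), so that the TGF-beta ligand genes Tgfb1 and Tgfb2 moved in opposite directions. Higher in Somite A were the matrix proteoglycan gene Fmod (2.72 ± 0.22), the membrane protease Fap (2.84 ± 0.20) and the cytokine receptor Lifr (2.34 ± 0.15). Of 160 tested genes with a symbol of Rpl or Rps and a number, 24 were higher, where 13.3% of all tested genes were. Lower were 2, where 15.3% of all were, and the median was 0.07. This rule on symbols can take in genes that do not encode ribosomal proteins.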
